A study of Mus musculus with 6 samples.

Results

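Sperm head actin-capping and actin-like proteins are followed here through the transcripts of 10 genes in mouse testis. They were taken by symbol from the 38715 genes of the deposited table: Capza1, Capza1b, Capza2, Capza3, Capzb, Actl7a, Actl7b, Actl9, Actrt2 and Actrt3. All 10 were found, and all 10 were among the 15040 genes tested. RNA-seq libraries of whole testis came from 3 Control and 3 Middle samples of the mouse, and Middle was taken as the MES-exposed group, the titles naming only these groups. MES is not spelled out in the labels, and the sources used here do not give the strain, age, dose or time of exposure. The series title places the exposure in early life. Nothing in the labels ties each library to its own animal, and p-values then reflect only the spread of these libraries, which may be technical.

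Capping protein is a heterodimer of an alpha and a beta subunit that sits on the fast-growing end of an actin filament and stops subunits from joining or leaving. The same dimer caps the short actin-like filament of dynactin, the cofactor of the dynein motor. In spermatids an actin plate, the acroplaxome, anchors the growing acrosome to the nucleus, and the perinuclear theca is the protein shell around the sperm nucleus. Testis forms of capping protein and several actin-related proteins are parts of these structures.

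The 10 genes fall into the alpha subunits (Capza1, Capza1b, Capza2, Capza3), the beta subunit (Capzb) and 5 actin-like genes. Capza1 and Capza2 are widely expressed, and Capza3 is the alpha subunit gene of spermatids, mutated in a line of sterile male mice. Actl7a encodes an acroplaxome protein that holds the acrosome to the nucleus, Actl9 encodes its partner, and Actl7b encodes a further actin-like protein of spermatids. Actrt2 and Actrt3 encode actin-related proteins of the perinuclear theca, and the product of Actrt3 binds a testis profilin.

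In the exon lists of the deposited table, on GRCm39, 5 of the 10 genes were a single uninterrupted exon block. These were Capza3 (chromosome 6, 139986978 to 139988504), Actl7a (chromosome 4, 56743413 to 56744925), Actl7b (chromosome 4, 56740005 to 56741443), Actl9 (chromosome 17, 33651870 to 33653242) and Actrt2 (chromosome 4, 154750890 to 154752324). Actrt3 (chromosome 3, 30651222 to 30654088) had 2 blocks and Capza1b (chromosome X, 168559253 to 168562631) had 3. The widely expressed genes were split further, with 10 blocks in Capza1 (chromosome 3, 104730095 to 104771821), 11 in Capza2 (chromosome 6, 17636233 to 17666971) and 16 in Capzb (chromosome 4, 138920210 to 139019129). Actl7b and Actl7a stand head to head on opposite strands, 1969 bases apart.

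The sequences upstream of the actin-like genes are shown because 3 of them hold the same short word near the start of transcription. RefSeq windows on GRCm38.p6 were matched by symbol for 8 of the 10 genes, and the 250 bases before the start were searched on both strands. The full cAMP response element, TGACGTCA, known as the binding site of the spermatid activator CREM, was in 0 of the 8 windows and in 1.55% of all 32851 windows. A near match, TGATGTCA, was in 3 of the 8 windows and in 2.93% of all windows. It was chosen after these windows had been read, so the counts are a description and do not show a binding site. The matches lay 29 to 36 bases before the start of Actl7b, 33 to 40 before that of Actl7a and 53 to 60 before that of Actl9. The stretches are chr4:56741426-56741505 on the minus strand for Actl7b, chr4:56743342-56743421 on the plus strand for Actl7a and chr17:33432803-33432882 on the plus strand for Actl9. Capitals mark the match, which on the printed strand of Actl7b reads TGACATCA.
Actl7b: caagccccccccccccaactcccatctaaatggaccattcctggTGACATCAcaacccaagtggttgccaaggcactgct
Actl7a: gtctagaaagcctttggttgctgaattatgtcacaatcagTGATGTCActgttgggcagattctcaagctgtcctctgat
Actl9: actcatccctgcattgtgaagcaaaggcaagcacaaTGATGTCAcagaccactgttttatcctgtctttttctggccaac

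The upstream windows also differed in composition. Those of the widely expressed genes were the richest in G and C, at 60.4% for Capza1, 62.4% for Capzb and 70.4% for Capza2, with 16, 11 and 28 CpG dinucleotides. Those of Actl7a and Actl9 were at 43.2% and 46.0% and held 1 and 0 CpG. Actrt2 had 0 CpG at 50.4%, Actl7b 4 at 52.4% and Actrt3 12 at 53.6%. The letters TATAAA were found on either strand in the window of Actl9 and in no other of the 8, against 12.4% of all windows.

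Reads summed over genes came to 38820385 to 58389391 per library. Whole-testis markers were present in every library. Summed over fixed lists, spermatocyte markers were at 1862 to 1954 RPKM, round spermatid markers at 789.7 to 925.1 and elongating spermatid markers at 29527 to 34559. Sertoli cell markers were at 226.7 to 249.7 RPKM, Leydig cell markers at 258.2 to 314.4, spermatogonium markers at 34.8 to 49.5, macrophage markers at 9.90 to 13.45, red blood cell markers at 11.1 to 17.2 and endothelial markers at 1.36 to 1.99. Of 5 epididymis markers 2 were in the table, at a sum of at most 0.040 RPKM, so that RNA of this neighbouring tissue was at or near 0 by these 2 genes.

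The 10 genes spanned a wide range of levels. RPKM, the unit of the table, is a read number scaled to gene length and library size, so levels can be compared between genes. Actl7b was far above the others, at 1037 to 1198 RPKM over the 6 libraries, and its Control mean was at or above that of 99.8% of tested genes. Actrt2 followed at 219.7 to 260.2 RPKM, Actl7a at 139.7 to 169.1, Capzb at 106.9 to 129.6 and Actl9 at 83.5 to 98.0, with no overlap between neighbours in this order. Capza1 (42.5 to 52.5 RPKM) and Capza3 (39.1 to 50.6) overlapped, as did Actrt3 (15.6 to 17.9) and Capza1b (10.2 to 16.9). Capza2 was the lowest, at 3.07 to 4.07 RPKM, so the spermatid alpha subunit gene was in the same range as its widely expressed relative Capza1 and far above Capza2.

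**Figure D1:**
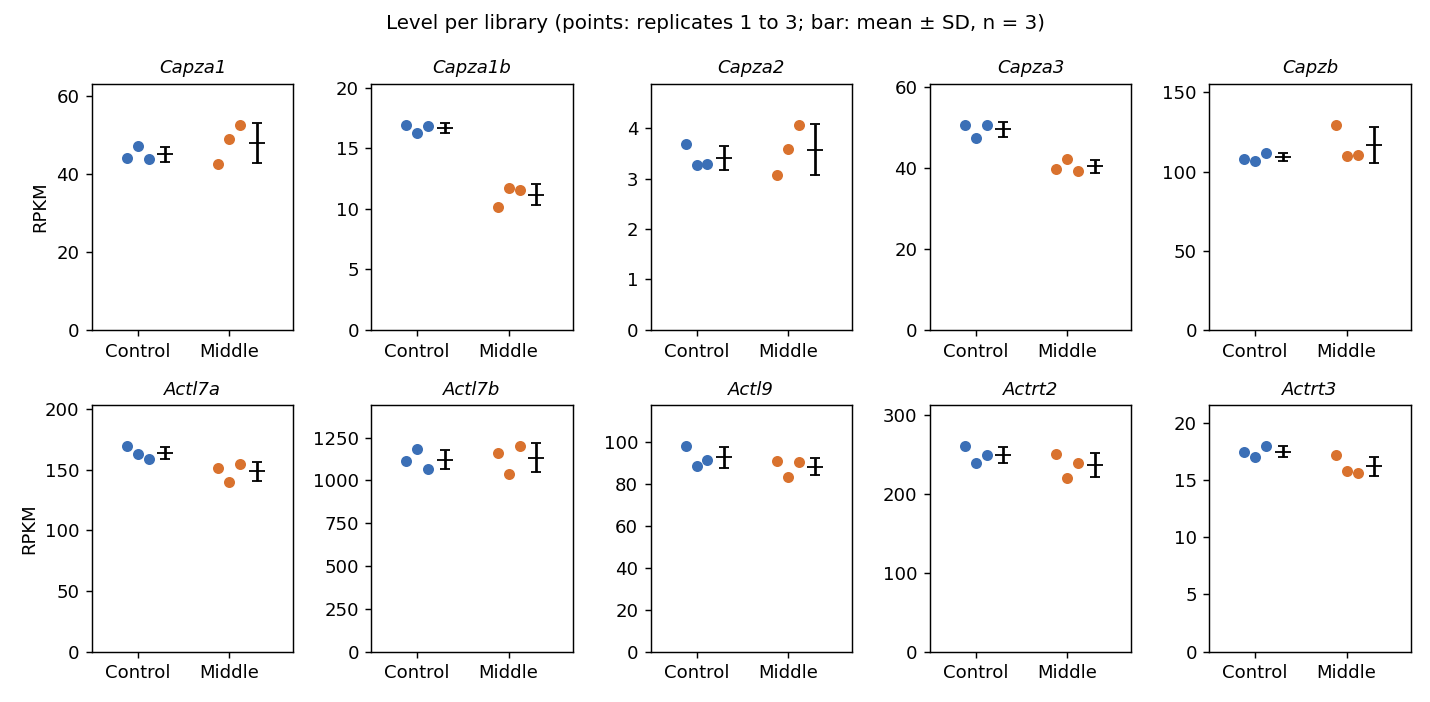
RPKM of each of the 10 genes (vertical axes, each from 0) in the 3 Control and 3 Middle libraries, points in the order of replicates 1 to 3, with the mean and SD (n = 3) beside them. The Middle points lie below all Control points for Capza1b, Capza3 and Actl7a and overlap the Control points for the other 7 genes.

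The question of the comparison is how these transcripts differed between Middle and Control testes. The genes were chosen by name while earlier results of this contrast, among them a lower Capza3 in Middle, were known. Their values are therefore given as a description, and nothing is supported with them. In the fit across all 15040 genes, 0 of the 10 had an adjusted p under 0.05 (limma), where 0.0532% of all genes did. By limma-voom on recovered reads 1 of the 10, Capza1b, passed. An unadjusted p under 0.05 was reached by 2 of the 10, Capza1b and Capza3, against 20.7% of all genes. Log2 fold changes, Middle minus Control on the log2(RPKM + 1) scale, lay below 0 for 6 of the 10 and for 44.1% of all genes, with a median of -0.07 for the 10 and of 0.03 for all. The groups did not overlap for 3 of the 10, all lower in Middle, against 29.3% of all genes (11.4% lower and 17.9% higher in Middle). In whole tissue, fewer cells of a type and less RNA per cell cannot be told apart.

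Among the alpha subunits, Capza1b and Capza3 lay lower in each Middle library than in any Control library. Capza1b was at 16.95, 16.2 and 16.8 RPKM in Control replicates 1 to 3. It was at 10.2, 11.8 and 11.6 RPKM in Middle replicates 1 to 3. The highest Middle library thus lay well below the lowest Control library, and the distance between the groups was larger than the spread within either. The means were 16.7 ± 0.39 and 11.2 ± 0.88 RPKM (mean ± SD, n = 3 each), a ratio of 0.67. The log2 fold change of -0.54 (SE 0.07) had the 13th smallest p of all 15040 genes and an adjusted p of 0.0896 (limma). With any single library left out its log2 fold change ranged from -0.58 to -0.48.

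Capza3 was at 50.6, 47.4 and 50.5 RPKM in Control replicates 1 to 3. In Middle replicates 1 to 3 it was at 39.6, 42.2 and 39.1 RPKM. Here too the groups did not overlap, and both were tight, with a coefficient of variation of 3.7% in Control and 4.16% in Middle. The log2 fold change was -0.29 (SE 0.06), a ratio of 0.814, with an adjusted p of 0.178 (limma). With a GC trend removed from each library it was -0.24.

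The 2 widely expressed alpha subunit genes overlapped between the groups. Capza1 was at 43.9, 47.2 and 43.8 RPKM in Control replicates 1 to 3 and at 42.5, 48.8 and 52.5 RPKM in Middle replicates 1 to 3. The Middle libraries reached both below and above the Control range. Its log2 fold change was 0.09 (SE 0.09, adjusted p = 0.564, limma), and it was 0.02 without Middle replicate 3 and 0.17 without Middle replicate 1. Capza2 was at 3.69, 3.26 and 3.29 RPKM in Control and at 3.07, 3.59 and 4.07 RPKM in Middle, also overlapping. Its log2 fold change of 0.05 (SE 0.10) turned to -0.03 without Middle replicate 3. In both genes replicate 1 was the lowest and replicate 3 the highest of the Middle libraries.

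Capzb, the single beta subunit gene, was at 108.2, 106.9 and 111.7 RPKM in Control replicates 1 to 3. It was at 129.6, 109.6 and 110.5 RPKM in Middle replicates 1 to 3. Middle replicate 1 stood above the rest, and the other two Middle libraries lay within the Control range. The log2 fold change was 0.09 (SE 0.08, adjusted p = 0.487, limma), and without Middle replicate 1 it was 0.01. The table gives 1 value per gene, so the testis isoform of the beta subunit was not told apart from the others.

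Within a library, ratios of these genes do not depend on how libraries were scaled. Capza3 made up 43.9%, 41.5% and 44.1% of the summed alpha subunit RPKM in Control replicates 1 to 3 and 41.6%, 39.7% and 36.4% in Middle replicates 1 to 3. By this share the groups overlapped, since Control replicate 2 and Middle replicate 1 met. Capza1b made up 14.7%, 14.2% and 14.7% in Control and 10.7%, 11.05% and 10.8% in Middle, with no overlap. The share of Capza1 was 39.3% ± 1.83 in Control and 46.5% ± 2.27 in Middle (mean ± SD, n = 3 each), with every Middle library above every Control library. The share of Capza2 was 2.86% to 3.20% in Control and 3.22% to 3.79% in Middle, also higher in each Middle library. Capza1b thus took a smaller part of the alpha subunit transcripts in each Middle library, and Capza1 and Capza2 larger ones. The shares of a library add up to a whole, so lower Capza1b and Capza3 raise the other shares. In RPKM, Capza1 and Capza2 overlapped between the groups.

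The alpha subunits together were at 115.2, 114.1 and 114.4 RPKM in Control replicates 1 to 3 and at 95.3, 106.4 and 107.3 RPKM in Middle replicates 1 to 3. Set against Capzb, the sum was at 1.06, 1.07 and 1.02 times its RPKM in Control and at 0.735, 0.971 and 0.971 times in Middle. The summed alpha RPKM was above that of the beta subunit in each Control library and below it in each Middle library. The side of 1 depends on the gene lengths by which RPKM divides the reads, 1351 bases for Capza1b, 5890 for Capza2 and 3299 for Capzb. Middle replicate 1, where Capzb was highest, was farthest from the others. Capza3 alone was at 0.454 ± 0.012 times the RPKM of Capzb in Control and at 0.348 ± 0.040 times in Middle (mean ± SD, n = 3 each). Relative to Capza1b, Capza3 was at 2.97 ± 0.043 times in Control and 3.62 ± 0.27 times in Middle, so Capza1b lay lower still than Capza3.

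**Figure D2:**
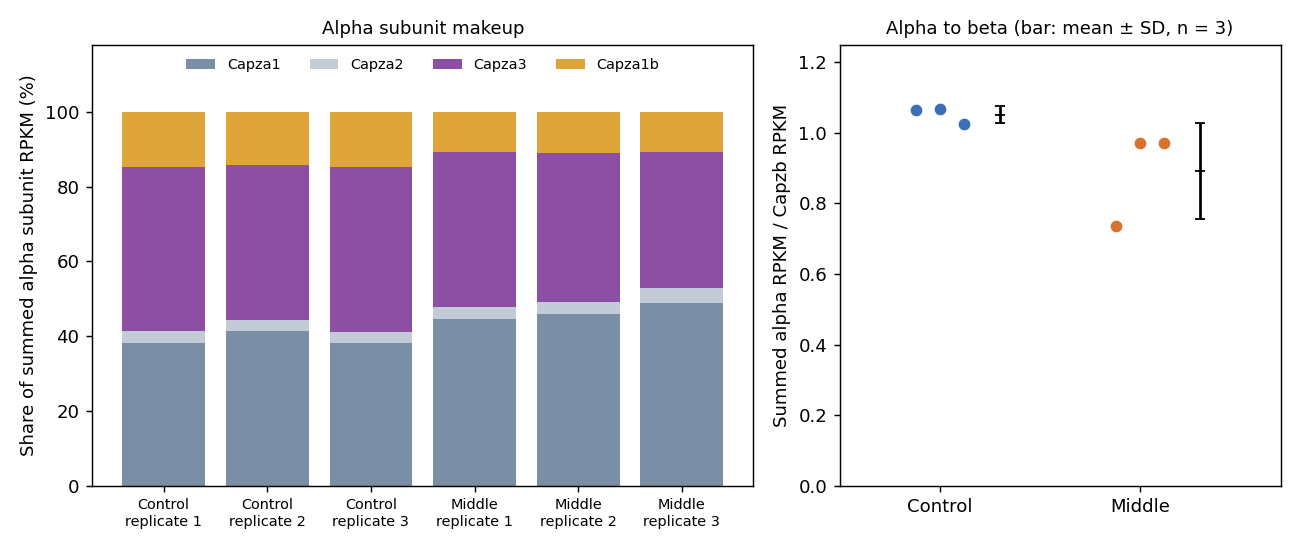
Left, the share of each alpha subunit gene in the summed alpha subunit RPKM (percent) for each library; right, the summed alpha RPKM divided by Capzb RPKM, with points for replicates and the mean and SD (n = 3). The Capza1b share is 14.2% to 14.7% in Control and 10.7% to 11.05% in Middle, and the alpha to beta ratio is above 1 in the 3 Control libraries only.

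Copies and overlapping genes bear on these counts. Capza3 shares 107 exon bases, 7% of its length, with Plcz1, which lies on the opposite strand and encodes the sperm phospholipase that starts calcium waves in the egg. Plcz1 was at 57.7, 54.5 and 54.3 RPKM in Control replicates 1 to 3 and at 34.3, 47.7 and 46.1 RPKM in Middle replicates 1 to 3. It was lower in Middle too, with a log2 fold change of -0.38 (SE 0.12, adjusted p = 0.178, limma). The sources used here do not give the strand setting of the counting, so reads of the shared bases may belong to either gene, and their part in the result was not tested. Capza1 shares 166 exon bases, 4.4% of its length, with St7l. Capza1b lies within the span of Mid1 and shares 0 exon bases with it.

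Among the 9 genes with a transcript in GENCODE M21, the longest exact stretch shared by a pair was 26 bases, between Capza1 and Capza2. Capza3 shared at most 12 bases with any of them. Capza1b was not among the 9, so its likeness to Capza1 was not measured. The table also lists Capza1-ps1, a pseudogene by its symbol, at 4.47 ± 0.23 RPKM in Control against 4.42 ± 0.43 in Middle (mean ± SD, n = 3 each). The sources used here do not say how multi-mapping reads were handled, so the values of Capza1, Capza1b and Capza1-ps1 are uncertain to that extent.

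Of the 5 actin-like genes, Actl7a lay apart between the groups and the other 4 overlapped. Actl7a, whose product holds the acrosome to the nucleus, was at 169.1, 163.2 and 158.6 RPKM in Control replicates 1 to 3. In Middle replicates 1 to 3 it was at 151.6, 139.7 and 154.3 RPKM. These groups were apart, but the highest Middle library came close to the lowest Control library. Its log2 fold change was -0.14 (SE 0.06), a ratio of 0.907, with an adjusted p of 0.247 (limma).

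Its head-to-head neighbour Actl7b was at 1116, 1180.4 and 1069 RPKM in Control replicates 1 to 3. It was at 1161, 1037 and 1198 RPKM in Middle replicates 1 to 3. The libraries were mixed, and the log2 fold change was 0.01 (SE 0.07, adjusted p = 0.933, limma). Its sign turned under both alternative scalings. The ratio of Actl7b to Actl7a was 6.60, 7.23 and 6.74 in Control and 7.66, 7.43 and 7.77 in Middle, so it was higher in each Middle library.

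Actl9, the partner of Actl7a, was at 98.0, 88.5 and 91.7 RPKM in Control replicates 1 to 3 and at 91.0, 83.5 and 90.4 RPKM in Middle replicates 1 to 3. The groups overlapped, with a log2 fold change of -0.07 (SE 0.07, adjusted p = 0.541, limma). Actrt2 was at 260.2, 239.5 and 249.2 RPKM in Control and at 250.9, 219.7 and 239.1 RPKM in Middle, overlapping as well. Its log2 fold change was -0.08 (SE 0.07, adjusted p = 0.509, limma). Leaving out Middle replicate 2 brought both genes to -0.03, and leaving out Control replicate 1 gave -0.03 for Actl9 and -0.05 for Actrt2. In Actl7a, Actl7b, Actl9 and Actrt2 alike, Middle replicate 2 was the lowest of the 6 libraries.

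Actrt3 was at 17.4, 16.96 and 17.9 RPKM in Control replicates 1 to 3 and at 17.2, 15.8 and 15.6 RPKM in Middle replicates 1 to 3. Middle replicate 1 fell within the Control range, and the other two lay below it. The log2 fold change was -0.10 (SE 0.06, adjusted p = 0.373, limma). Over all 10 genes the standard error of the log2 fold change was 0.06 to 0.10, and the fewest reads behind any value were 650, for Capza1b, while Actl7b rested on 59699 reads or more.

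**Figure D3:**
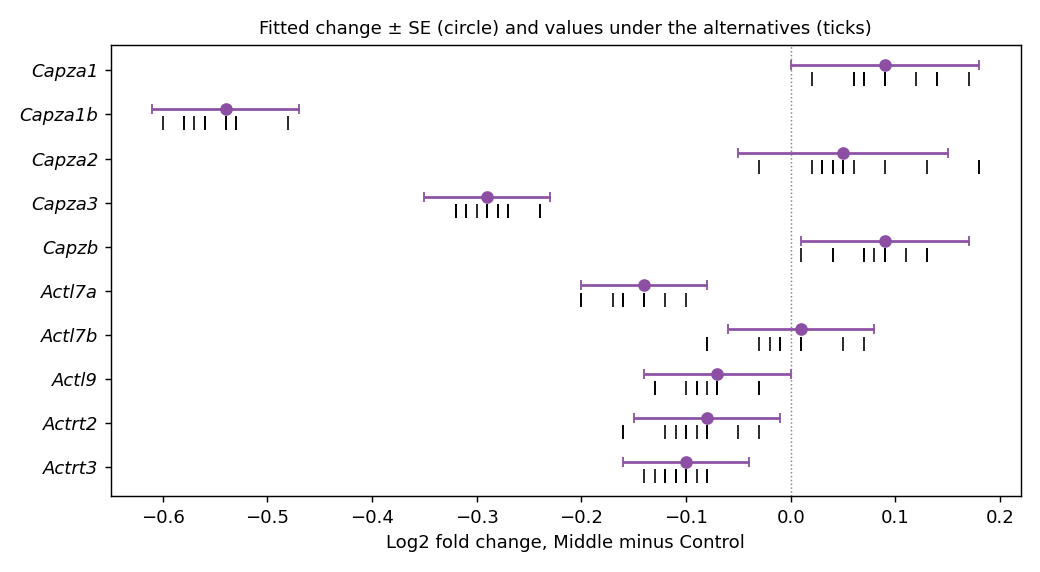
Log2 fold change of each gene, Middle minus Control, as fitted (circle, with its SE) and under the alternative settings (ticks). Capza1b stays between -0.60 and -0.48 and Capza3 between -0.32 and -0.24, while Actl7b and Capza2 lie on both sides of 0.

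Other genes of the sperm head and of the general actin machinery were taken from lists chosen by function, again with earlier results of these data known. The acroplaxome and perinuclear theca list was drawn widely, with genes of spermatid head shaping and acrosome formation. Its counts are therefore not of the acroplaxome and theca alone. By limma-voom, as by limma, 0 genes of these 6 lists passed. In the acroplaxome and perinuclear theca list, 0 of 18 tested genes passed (limma), 7 had an unadjusted p under 0.05, and 17 lay below 0 with a median of -0.15. Of all genes tested, 0.0532% passed, 20.7% had an unadjusted p under 0.05 (limma) and 44.1% lay below 0, with a median of 0.03. The count of the list below 0 was 14 to 18 over the alternatives, and it was 14, with a median of -0.10, without Middle replicate 1. Cylc1, encoding cylicin, a theca protein, was at 31.3, 23.4 and 24.5 RPKM in Control replicates 1 to 3 and at 8.95, 17.1 and 16.1 RPKM in Middle replicates 1 to 3. The groups were apart, and Middle replicate 1 was the lowest by far (log2 fold change -0.90, SE 0.23, adjusted p = 0.178, limma).

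Ccin, encoding the theca protein calicin, averaged 46.2 ± 2.38 RPKM in Control against 40.5 ± 1.01 in Middle (mean ± SD, n = 3 each), a ratio of 0.876. The testis profilin gene Pfn3 was at 19.3 ± 1.84 and 15.3 ± 0.78 RPKM (mean ± SD, n = 3 each), a ratio of 0.794. Neither group overlapped the other in these genes, and neither passed (adjusted p 0.186 and 0.178, limma). Spaca1, a membrane protein of the acrosome, was at 51.1, 44.4 and 53.1 RPKM in Control and at 27.1, 45.7 and 41.3 RPKM in Middle, with overlap. Zpbp, an acrosomal protein that binds the egg coat, overlapped as well, at 12.4 ± 0.41 and 11.3 ± 1.38 RPKM (mean ± SD, n = 3 each). Actrt1, a relative of Actrt2 named after its values were seen, averaged 8.98 ± 0.79 RPKM in Control against 6.98 ± 0.13 in Middle (mean ± SD, n = 3 each), with no overlap.

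The lists of general actin machinery had medians above 0 by limma, as did all genes tested together (median 0.03). Of these 15040 genes, 8412 lay above 0 and 20.7% had an unadjusted p under 0.05 (limma), to be read beside each list. Of 12 tested capping protein regulators and other barbed-end binders, 0 passed, 4 had an unadjusted p under 0.05 and 10 lay above 0 (median 0.08, limma). With either alternative scaling 5 of the 12 lay below 0, and 6 of the 12 did without Middle replicate 3. By limma-voom 10 of 20 tested lay below 0, with a median of 0.0. Twf2, encoding a twinfilin, which binds capping protein, was at 2.07, 2.10 and 2.11 RPKM in Control replicates 1 to 3 and at 3.35, 2.74 and 2.45 RPKM in Middle replicates 1 to 3. The groups were apart, and the log2 fold change was 0.31 (SE 0.10, adjusted p = 0.178, limma). Mtpn, whose product myotrophin holds capping protein away from filaments, overlapped, at 4.06 ± 0.09 and 4.07 ± 0.36 RPKM, and the capper Capg was low, at 0.873 ± 0.09 and 1.05 ± 0.23 (mean ± SD, n = 3 each). Capg, one of the 10 genes above 0, reached the filter of 1 RPKM by its Middle mean only. Its side of 0 was therefore fixed by the filter.

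Dynactin, which also holds capping protein, had 0 of 9 genes past the threshold and 7 above 0 (median 0.07, limma). An unadjusted p under 0.05 (limma) was reached by 2 of the 9, against 20.7% of all genes tested, of which 8412 of 15040 lay above 0. Its filament subunit gene Actr1a averaged 65.6 ± 1.96 RPKM in Control against 71.0 ± 5.02 in Middle, and Dctn1, which encodes its largest subunit, at 34.7 ± 3.13 and 39.6 ± 2.04 (mean ± SD, n = 3 each). In the Arp2/3 and WASH complexes, which start branched filaments, 0 of 12 tested genes passed and 10 lay above 0 (median 0.12; 2 with an unadjusted p under 0.05, limma). Within this list Actr2 was at 2.97 ± 0.16 and 2.44 ± 0.07 RPKM and Arpc2 at 98.8 ± 2.88 and 106.0 ± 1.09 (mean ± SD, n = 3 each), on opposite sides and both without overlap.

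Among the other actin-related genes, 0 of 6 tested passed and 5 lay above 0 (median 0.16; 2 with an unadjusted p under 0.05, limma). Actl6a, an actin-like subunit of chromatin remodellers, averaged 36.4 ± 1.78 RPKM in Control against 41.6 ± 2.05 in Middle (mean ± SD, n = 3 each), without overlap. Among the actins and turnover genes, 0 of 16 tested passed, 7 had an unadjusted p under 0.05 and 9 lay above 0 (median 0.07, limma). For both lists the share over all genes tested was 20.7% with such a p and 8412 of 15040 above 0. Actg1, cytoplasmic gamma actin, was at 234.9, 266.7 and 253.7 RPKM in Control and at 362.7, 289.8 and 280.4 RPKM in Middle, without overlap and with Middle replicate 1 the highest. Actb, beta actin, overlapped at 117.9 ± 2.17 and 117.5 ± 16.2 RPKM, and the filament-severing Cfl1 at 43.8 ± 2.68 and 50.0 ± 3.44 (mean ± SD, n = 3 each).

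**Figure D4:**
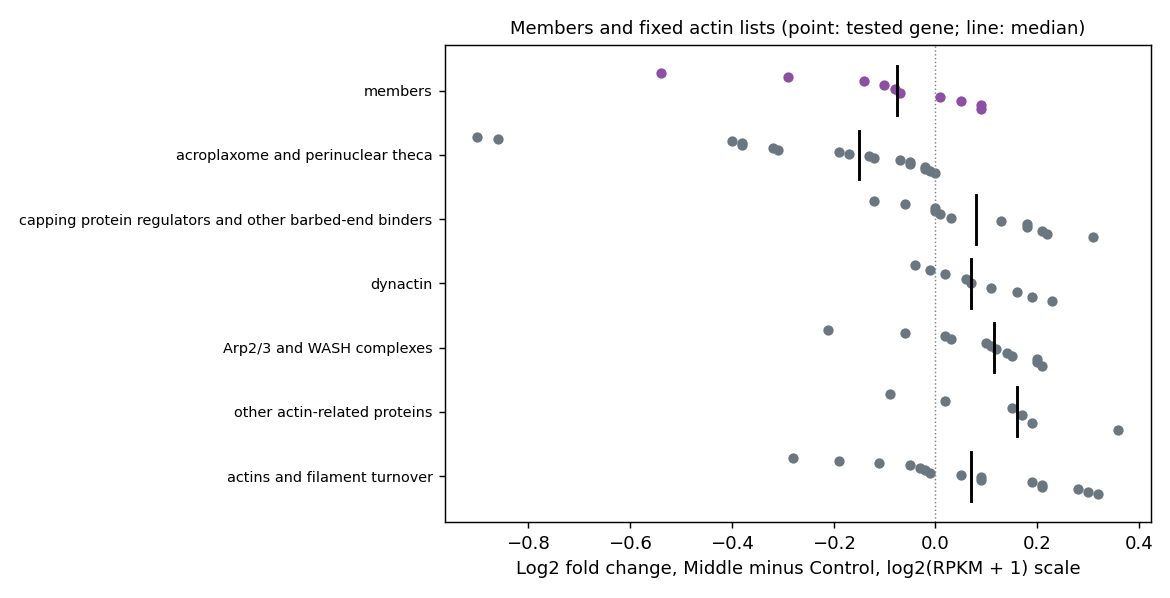
Log2 fold change (horizontal axis, Middle minus Control, log2(RPKM + 1) scale) of every tested gene of the 10 members and of the 6 fixed actin lists, each point 1 gene and each line a median. The acroplaxome and theca list has its median at -0.15, the 10 members at -0.07 and the other 5 lists between 0.07 and 0.16.

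The summed levels of several marker lists lay apart between the groups, although 0 genes of these lists passed (limma). The count with an unadjusted p under 0.05 was 4 of 8 tested spermatocyte markers, 5 of 10 round spermatid, 4 of 10 elongating spermatid, 4 of 8 Sertoli cell and 4 of 6 peritubular cell markers, 8 of 10 ribosomal protein genes and 6 of 6 mitochondrial genes. It was 2 of 5 tested spermatogonium, 1 of 6 Leydig cell, 0 of 3 macrophage and 1 of 3 red blood cell markers. The spermatogonium, Leydig cell, macrophage and red blood cell sums overlapped between the groups. Of all genes tested, 20.7% had an unadjusted p under 0.05 (limma), and 8412 of 15040 lay above 0. The summed spermatocyte markers were at 1909.8 to 1953.8 RPKM in Control and 1862.4 to 1909.7 in Middle, barely apart, with 4 of 8 genes below 0. Most of that sum was Ldhc, named after its values were seen, at 1518.1 to 1554.4 RPKM in Control and 1457.3 to 1517.7 in Middle. Of the 8 genes, 3 were lower in each Middle library and 3 higher, against 11.4% and 17.9% of all genes tested. The summed round spermatid markers were at 880.9 to 925.1 RPKM in Control and 789.7 to 834.6 in Middle, with 8 of 10 genes below 0, against 44.1% of all genes tested. The elongating spermatid markers overlapped in sum, at 31306 to 34559 and 29527 to 31937 RPKM, also with 8 of 10 below 0. The summed peritubular cell markers were at 89.5 to 100.6 RPKM in Control and at 108.4 to 133.5 in Middle, and all 6 lay above 0. Sertoli cell markers were at 226.7 to 234.0 and 237.4 to 249.7 RPKM, with 7 of 8 tested genes above 0. Most of the Sertoli cell sum was Clu, also named after its values were seen, which overlapped at 134.4 to 142.3 and 132.8 to 149.0 RPKM. The sums over ribosomal protein genes and over genes of the mitochondrial genome, taken as signs of RNA quality, were higher in each Middle library, at 904.7 to 973.5 against 1034.5 to 1282 RPKM and at 5850.0 to 7252 against 8178 to 11136 RPKM. All 10 ribosomal protein genes and all 6 tested mitochondrial genes of 9 lay above 0, while mt-Co2 and mt-Co3, at under 0.5 RPKM in every library and not tested, overlapped. The untested mt-Atp6, also at under 0.5 RPKM in every library, was higher in each Middle library. The rank correlation across genes of a library's deviation with transcript GC content was -0.303 to -0.223 in Control and 0.461, 0.0198 and -0.0674 in Middle replicates 1 to 3, without overlap, so GC trend and group cannot be told apart. The part of these markers in the lower Capza3, Capza1b and Actl7a was not tested.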

How the data were processed

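RPKM values for 6 libraries were used as deposited. The submitters' processing notes name fastp 0.23.0, a read trimmer, and build GRCm39. The sources used here do not give the aligner, the counting program or the strand setting. RPKM that the authors deposited was multiplied by gene length and divided by the smallest nonzero product of its library, taken as a single read. This gave whole numbers for 100% of values within a tolerance of 0.001, used as the recovered reads. Genes whose Control or Middle mean reached 1 RPKM (15040) were tested on the log2(RPKM + 1) scale by limma 3.58.1 (R 4.3.3) with a variance trend, Middle minus Control, two-sided. P-values were Benjamini-Hochberg adjusted over these genes, at a threshold of 0.05. The fit was tested on simulated data. Ratios are of mean RPKM. The members and all lists were chosen with earlier results of these data known. Named genes are the 10 members and 16 pathway genes taken whatever their values; others are said to be named after their values were seen, or are named for an overlap or copy (Plcz1, St7l, Mid1, Capza1-ps1). Replicates of a group differed by more than sampling noise (chi-square over degrees of freedom 5.85 to 31.25) and were each counted once. The largest values, 31.25 and 22.5, were those of Middle replicate 1 with replicates 2 and 3. Middle replicates 2 and 3 gave 10.09, and the Control pairs 5.85 to 9.44. Replicate numbers showed no pairing of the libraries (r of -0.153, -0.119 and 0.00544 between the deviations of same-numbered libraries), and were not used in the fit. Alternatives were another pseudocount (0.1), no filter or a CPM filter, 2 scalings, limma-voom on recovered reads with TMM factors, a replicate block, removal of a GC trend (GENCODE M21 transcripts, loess span 0.5), a threshold of 0.01 and leaving out each library. Intervals for counting error were not needed at these depths, since the spread between libraries sets the precision.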

Additional observations from a re-analysis of the deposited data

How the results depend on the processing

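The count of genes passing over all tested genes was 8. It was 0 without a filter, 24 by limma-voom on recovered reads, 0 at a threshold of 0.01 and 0 to 3 without any single library. With the replicate block it was 0, and 0 with the block and the GC trend removed. Same-numbered libraries did not deviate together from their group means. With 3 libraries per group that check cannot exclude a batch shared by number, so the 0 under the block remains a limit of the count. Of the 10 members 0 passed under every alternative except limma-voom, where 1 did: Capza1b (-0.60, adjusted p = 0.0347), whose adjusted p was 0.0347 to 0.433 over its 13 alternatives. It has no transcript in GENCODE M21, so the GC removal gave it no value. The Capza3 share of the alpha subunits, 43.2% in Control and 39.2% in Middle, was 26.2% and 22.2% in recovered reads, which are not divided by gene length, and 50.6% and 44.0% without Capza1b in the sum. Of 148 member fold changes under the alternatives 138 kept their direction and side of the threshold and 9 turned. Those of Actl7b turned to -0.01 with median-of-ratios and upper-quartile scaling and limma-voom, to -0.08 with the GC trend removed, with or without the block, and when Control replicate 3, Middle replicate 1 or Middle replicate 3 was left out (-0.03 to 0.07 over the single libraries); Capza2 turned to -0.03 without Middle replicate 3 (-0.03 to 0.13). Mtpn turned to -0.000379 with the pseudocount of 0.1, -0.02 with both scalings and limma-voom, and with 3 of the single libraries left out (-0.06 to 0.03). Actb turned with 3 of them left out (-0.12 to 0.06). For these the cause was not tested.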

Other observations

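Beside the 10 genes, 2 more actin-like genes of testis were in the table and were named after their values were seen. Actl11 was at 49.0, 50.7 and 48.75 RPKM in Control replicates 1 to 3 and at 49.25, 50.15 and 51.4 RPKM in Middle replicates 1 to 3, level with Capza3 in Control. Actl10 was at 9.07, 10.3 and 11.4 RPKM in Control and at 15.6, 11.1 and 13.8 RPKM in Middle, where the groups overlapped.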
